A study of Mus musculus with 6 samples.

Results

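The transcripts described here encode TRAF adaptors and the ubiquitin-editing regulators around them: Traf1, Traf2, Traf3, Traf5, Map3k14, Malt1, Tnfrsf1b, Tnfaip3, Tnip1 and Cyld. They were chosen by gene symbol, as every probe set that the platform annotation assigns to one of these 10 genes alone. Of the 10 genes, 9 had a probe set, together 15 of the 45037 probe sets tested, and they are 9 of the 17097 genes named on the array; Traf3 had none, and its expression was not analysed here.

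TRAF proteins are adaptors that bind the tails of TNF receptor family members and of Toll-like receptor complexes, where they recruit or act as ubiquitin ligases. The ubiquitin chains they build attract the TAK1 kinase, encoded by Map3k7, and the IKK complex, which free NF-kB to enter the nucleus. NF-kB in turn induces inhibitors of its own pathway, among them A20 (Tnfaip3), a ubiquitin-editing enzyme, and its binding partner ABIN-1 (Tnip1). In dendritic cells A20 is known for restraining activation and survival signals.

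The samples were CD11c+ dendritic cells isolated by flow cytometry from the spleens of C57Bl/6 mice, each hybridised to 1 Affymetrix array. The knockout group (genotype Map3k7CreER, 3 samples) carried an inducible Cre for deletion of Map3k7, and the wild-type group (WT, 3 samples) did not; both received tamoxifen in vivo for 3 days. The promoter that drives the Cre, the age and sex of the mice and whether a sample came from 1 mouse are not given in the sources used here. Deletion, the Cre transgene and responses of other cells in the mouse cannot be told apart, and since nothing says that samples came from separate mice, a p-value here reflects the scatter among the samples, which may be technical. Map3k7 was lower in the knockout samples, its brightest probe set reading 4.04, 4.46 and 3.64 there and 6.68, 6.69 and 6.57 in the wild-type samples (log2 expression; difference -2.60, limma adjusted p = 0.00128). The other Map3k7 probe sets stood, from brighter to dimmer, at -2.34, -3.25, -0.19 and -0.65 (limma adjusted p = 0.0181, 0.000165, 0.65 and 0.239). Those at -0.19 and -0.65 did not pass and were dim, averaging 3.65 and 3.54 over all arrays. Where the Map3k7 probes lie relative to the deleted part was not analysed here.

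Levels are the authors' log2 expression values, and the median tested probe set stood at 3.77; all 15 member probe sets lay above that. Differences are knockout minus wild type on the log2 scale, and a transcript is said to have risen or fallen only where limma's Benjamini-Hochberg adjusted p, over all 45037 probe sets, was under 0.05. Where a gene has several probe sets, the one with the highest mean signal, called the brightest, stands for it. With 3 arrays against 3, an exact permutation test of a single transcript cannot give a p under 0.1. In sorted cells measured in bulk, fewer cells of a type and less RNA per cell cannot be told apart.

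The promoters of the 3 genes on which the comparison turns are shown first. Traf1 passed the test, while Tnip1 and Tnfaip3 encode partner proteins that restrain NF-kB and did not pass. Each runs from 250 bases before to 50 bases after the RefSeq gene start, 5′ to 3′ on the strand of the gene (GRCm38.p6, minus strand for all 3), and capitals mark matches to a 10-letter form of the NF-kB motif (GGG, any 2 bases, TT, any base, CC), sought on both strands.
Traf1, chr2:34961723-34962022: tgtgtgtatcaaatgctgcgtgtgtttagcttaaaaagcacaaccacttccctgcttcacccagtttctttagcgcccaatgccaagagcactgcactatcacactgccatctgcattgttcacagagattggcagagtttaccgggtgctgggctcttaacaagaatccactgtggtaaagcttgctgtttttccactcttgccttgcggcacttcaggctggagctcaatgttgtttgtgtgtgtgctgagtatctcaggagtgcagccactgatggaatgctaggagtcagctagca
Tnip1, chr11:54962891-54963190: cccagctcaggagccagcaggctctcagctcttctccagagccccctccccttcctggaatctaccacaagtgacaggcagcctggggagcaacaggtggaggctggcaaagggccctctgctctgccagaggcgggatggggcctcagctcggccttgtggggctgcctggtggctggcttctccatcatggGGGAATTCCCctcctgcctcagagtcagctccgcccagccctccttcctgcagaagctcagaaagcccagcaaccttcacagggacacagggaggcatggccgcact
Tnfaip3, upstream start, chr10:19015361-19015660: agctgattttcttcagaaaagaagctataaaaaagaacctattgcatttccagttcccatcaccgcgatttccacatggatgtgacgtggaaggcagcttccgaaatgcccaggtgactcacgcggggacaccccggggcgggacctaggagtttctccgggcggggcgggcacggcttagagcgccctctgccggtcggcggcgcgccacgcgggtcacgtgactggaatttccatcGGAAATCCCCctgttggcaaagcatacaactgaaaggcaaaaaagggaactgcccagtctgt
The Tnip1 window holds GGGAATTCCC, from position -57 to -48 relative to the start, which matches on both strands because it is its own reverse complement. The upstream Tnfaip3 window holds GGGGATTTCC on the opposite strand, from -12 to -3, and the window of its second listed start holds no match. The Traf1 window holds no match, which says only that these letters are not in these 300 bases.

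Of the 9 members with a promoter in the RefSeq table (Malt1 was the other), 5 had a match in at least 1 window, against 5.48% of all 27025 genes with a promoter there. Besides Tnip1 and Tnfaip3 these were Cyld, with GGGACTTTCC on the opposite strand at -155 to -146, Traf3, with GGGGATTTCC at -10 to -1, and Traf2, with GGGTGTTTCC 32 to 41 bases after the start. Traf1, Traf5, Map3k14 and Tnfrsf1b had none. A match is a description of the sequence and not a binding site. The genes with both a match and a probe set differed between knockout and wild type by -0.75 (Tnip1), -0.50 (Traf2), 0.11 (Tnfaip3) and 0.13 (Cyld), and 0 of these 4 passed.

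Among the members, Traf1 fell in knockout cells, and the other 8 measured genes did not pass. This makes 1 of 9 genes lower, against 0.591% of all genes, and 0 of 9 higher, against 1.08% of all genes. At an unadjusted p under 0.05 (limma) 3 of the 9 differed, against 16.4% of all genes in either direction: Traf1, Tnip1 and Traf2 were lower and 0 were higher. The median difference of the 9 was -0.04, beside -0.02 for all genes. By probe set, 1 of 15 was lower, against 0.391% of all probe sets, and 0 were higher, against 0.804%. The arrays of both groups did not overlap on 4 of the 15 probe sets, against 17.5% of all probe sets. The members were chosen with earlier results of these data known, and all 15 probe sets lie above the median level. The shares of all genes and probe sets are therefore given for scale and do not test the members.

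**Figure D1:**
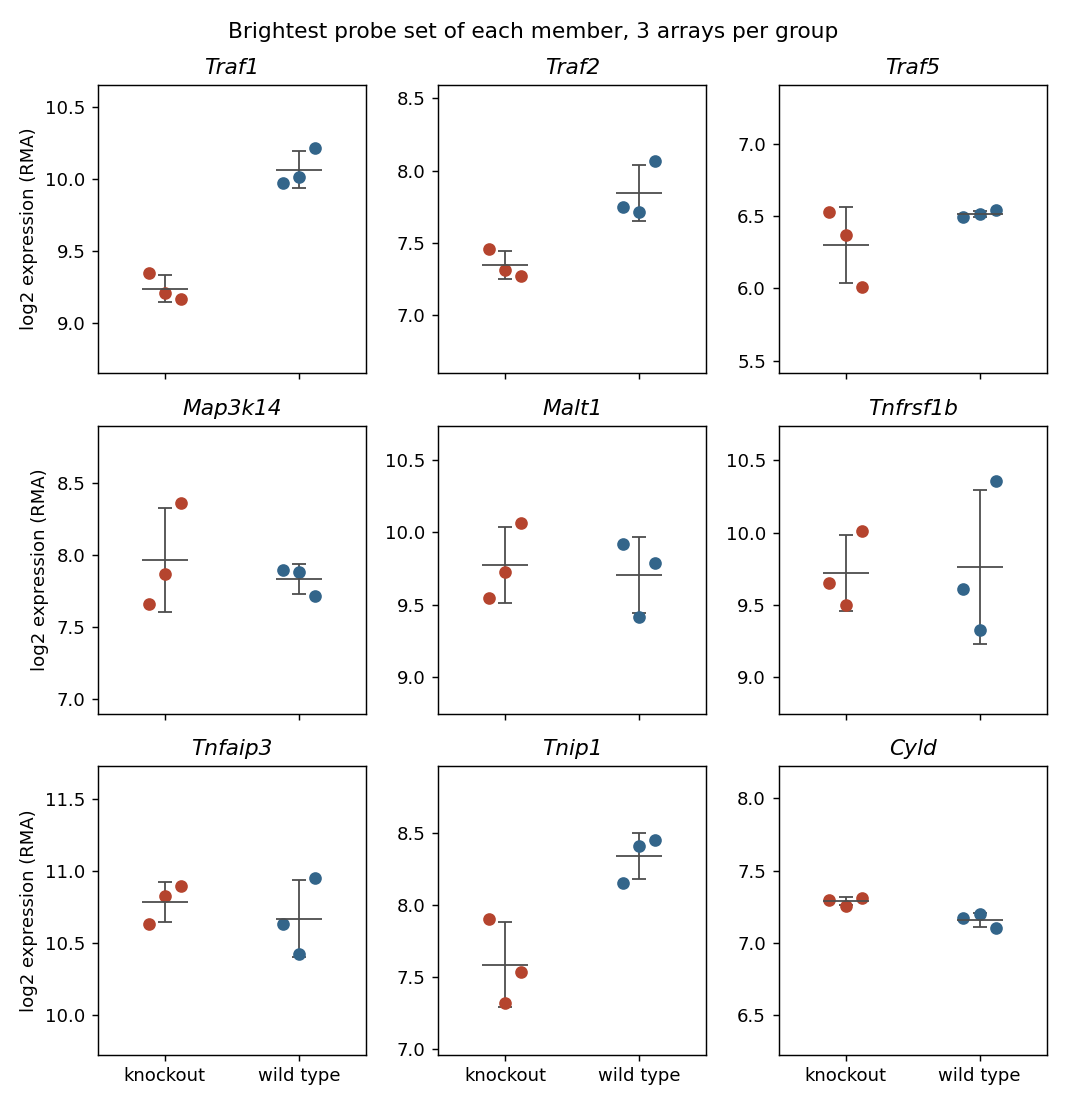
Log2 expression (RMA, vertical axis, each panel spanning 2 log2 units) of the brightest probe set of the 9 measured members, with each point an array, knockout in red on the left and wild type in blue on the right, and the bars giving mean ± SD of 3 arrays. The groups do not overlap for Traf1, Traf2 and Tnip1, which are lower in knockout cells, or for Cyld, which differs by 0.13.

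Of the 3 TRAF adaptors measured, Traf1 fell, and Traf2 and Traf5 did not pass. Traf1 lacks the RING domain of its relatives, forms mixed trimers with TRAF2 and is itself an NF-kB target. Its brightest probe set read 9.35, 9.21 and 9.17 in the knockout samples and 9.97, 10.01 and 10.21 in the wild-type samples. All 3 knockout samples lay under the lowest wild-type sample, and the gap between the groups was larger than the range within either. The difference was -0.83 (SE 0.11, 95% interval -1.07 to -0.58, limma adjusted p = 0.0134), a 1.77-fold lower signal.

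The dimmer Traf1 probe set did not pass. It read 7.55, 7.20 and 8.67 in the knockout samples and 8.43, 8.92 and 9.08 in the wild-type samples. Knockout replicate 3 lay above wild-type replicate 1, so the groups overlapped. The difference was -1.01 (SE 0.36, limma adjusted p = 0.285), and without knockout replicate 3 it was -1.44 (SE 0.21, limma adjusted p = 0.0366).

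The call on Traf1 depended on which arrays were kept. With 1 array left out, its difference stayed between -0.88 and -0.75 but passed in 3 of 6 fits, and it missed without knockout replicate 2 (limma adjusted p = 0.0881), wild-type replicate 1 (0.0557) or wild-type replicate 2 (0.0567). As the mean of its probe sets Traf1 stood at -0.92 (limma adjusted p = 0.051).

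Traf2 is the ligase adaptor that brings cIAP1 and cIAP2 to TNF receptors. It read 7.45, 7.31 and 7.27 in the knockout samples, and 7.75, 7.71 and 8.07 in the wild-type samples. The groups did not overlap, but the difference of -0.50 (SE 0.12, 95% interval -0.78 to -0.22) did not pass (limma adjusted p = 0.122). Traf5, which binds CD40 and other receptors together with TRAF3, read 6.53, 6.37 and 6.01 in the knockout samples, against 6.50, 6.52 and 6.54 in the wild-type samples. The wild-type arrays lay close together and knockout replicate 3 lay lowest, with a difference of -0.22 (SE 0.14, limma adjusted p = 0.627).

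Whether Traf1 differed by more than its relatives was tested on the within-array difference between the brightest probe sets, in pairs chosen after their values were seen. Traf1 minus Traf2 changed by -0.33 log2 units in knockout cells relative to wild-type cells, and Traf1 minus Traf5 changed by -0.61. In both pairs the groups did not overlap, and both p-values were 0.1 by a 2-sided exact permutation test, the smallest 3 against 3 arrays allow (0.1 also after adjustment over 3 pairs, n = 3 each). This permutation test could therefore not have reached 0.05 whatever the values.

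**Figure D2:**
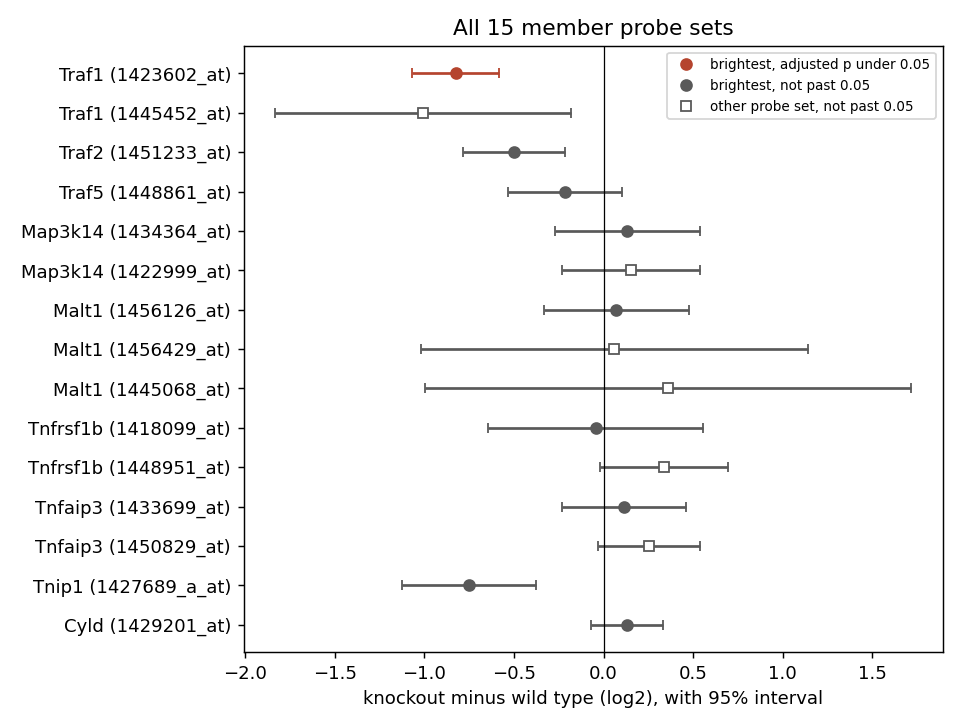
Difference between knockout and wild type (horizontal axis, log2, with the 95% interval from limma) for all 15 member probe sets, filled circles for the brightest of each gene and open squares for the others. The brightest Traf1 probe set alone passed (red), the intervals of the dimmer Traf1 probe set, Traf2 and Tnip1 lie below 0 without passing, and the dimmer Malt1 probe sets have the widest intervals.

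Downstream of the TRAFs, Map3k14 encodes NIK, the kinase that starts noncanonical NF-kB signalling and whose protein is kept low by degradation through TRAF3, TRAF2 and the cIAPs. Its brightest probe set read 7.66, 7.86 and 8.36 in the knockout samples and 7.90, 7.88 and 7.71 in the wild-type samples. Knockout replicates lay on both sides of the wild-type range. The difference was 0.13 (SE 0.18, 95% interval -0.27 to 0.54, limma adjusted p = 0.852), and the second probe set stood at 0.15 (limma adjusted p = 0.812). Without knockout replicate 3 the brightest stood at -0.07.

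Malt1 encodes a paracaspase that acts with BCL10 and CARD proteins and cleaves several inhibitors of NF-kB, A20 and CYLD among them. Its brightest probe set read 9.54, 9.72 and 10.06 in the knockout samples and 9.92, 9.41 and 9.78 in the wild-type samples. The groups overlapped, with a difference of 0.07 (SE 0.17, 95% interval -0.33 to 0.47, limma adjusted p = 0.929). The other Malt1 probe sets varied far more from array to array: the second read 7.88, 8.0002 and 9.61 in the knockout samples, against 8.42, 7.89 and 9.001 in the wild-type samples.

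The dimmest Malt1 probe set read 7.12, 7.30 and 9.004 in the knockout samples and 7.66, 6.42 and 8.27 in the wild-type samples. On both dimmer probe sets knockout replicate 3 was the highest of all arrays and wild-type replicate 3 the second highest, and on the dimmer Traf1 probe set replicate 3 was likewise the highest of each group. Their differences were 0.06 (SE 0.47) and 0.36 (SE 0.59), and neither passed (limma adjusted p = 0.98 and 0.885). The 3′ minus 5′ signal of the array's beta-actin control, a measure of RNA integrity, ran from 0.31 to 0.35 in the knockout samples and from 0.22 to 0.35 in the wild-type samples. On this control knockout replicate 3 was the lowest knockout sample (0.31), while wild-type replicate 3 was the highest wild-type sample (0.35). For the Gapdh control the knockout samples lay close together, at -0.16, -0.15 and -0.14 in replicate order. Wild-type replicate 3 was the highest wild-type sample on the Gapdh control as well, at 0.15. The part of RNA integrity in these probe sets was not tested.

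**Figure D3:**
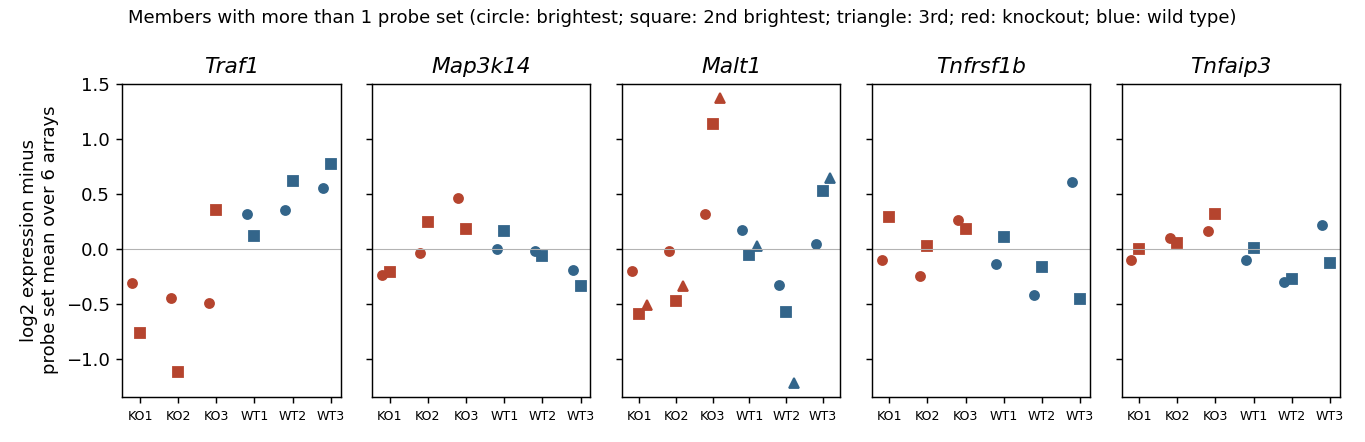
Log2 expression of each probe set minus its own mean over the 6 arrays (vertical axis) for the 5 members with more than 1 probe set, by array, with knockout (KO1 to KO3) in red and wild type (WT1 to WT3) in blue, and circles, squares and triangles for the brightest, next and dimmest probe set. Both dimmer Malt1 probe sets are highest in KO3 and next highest in WT3, while the brightest Malt1 probe set varies less.

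Among receptors, Tnfrsf1b encodes TNFR2, which binds TNF and signals through TRAF2 and TRAF1. Its brightest probe set read 9.65, 9.50 and 10.01 in the knockout samples and 9.61, 9.32 and 10.36 in the wild-type samples. The groups overlapped, wild-type replicate 3 being the highest array, and the difference was -0.04 (SE 0.26, 95% interval -0.64 to 0.56, limma adjusted p = 0.972). Its dim second probe set, at 4.28 ± 0.13 in knockout cells and 3.94 ± 0.28 in wild-type cells (SD, n = 3 each), stood at 0.34 (limma adjusted p = 0.439), opposite in sign. Without wild-type replicate 3 the brightest probe set stood at 0.25, and as the mean of both probe sets at 0.15, so the sign for this receptor is unsettled.

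Of the 3 negative regulators, 0 passed (limma; Tnip1 alone at an unadjusted p under 0.05). Tnip1 encodes ABIN-1, which binds ubiquitin chains and helps A20 to act on its substrates. Its only probe set read 7.90, 7.32 and 7.53 in the knockout samples and 8.15, 8.41 and 8.45 in the wild-type samples. The groups did not overlap, and the difference was -0.75 (SE 0.16, 95% interval -1.13 to -0.38), a 1.68-fold lower signal that did not pass (limma adjusted p = 0.0803). Without knockout replicate 1, the highest knockout array, Tnip1 stood at -0.91 and passed (limma adjusted p = 0.028); without each other array in turn it did not pass.

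Tnfaip3 encodes A20, which edits ubiquitin chains on signalling proteins and is induced by NF-kB. Its brightest probe set read 10.63, 10.83 and 10.90 in the knockout samples and 10.63, 10.43 and 10.95 in the wild-type samples. All knockout values lay within the wild-type range, with a difference of 0.11 (SE 0.15, limma adjusted p = 0.849). The 95% interval of -0.23 to 0.46 corresponds to a signal in knockout cells between 0.853 and 1.37 times that in wild-type cells. The second Tnfaip3 probe set stood at 0.25 (SE 0.12, limma adjusted p = 0.48).

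Cyld encodes a deubiquitinase that removes K63-linked and linear chains. It read 7.30, 7.26 and 7.31 in the knockout samples and 7.17, 7.20 and 7.10 in the wild-type samples. The groups did not overlap, but their distance was small: 0.13 (SE 0.09, 95% interval -0.07 to 0.33, limma adjusted p = 0.646), or between 0.953 and 1.26 times the wild-type signal. The within-array difference Tnip1 minus Tnfaip3, the last of the pairs chosen after the values were seen, changed by -0.87, with no overlap between the groups and p = 0.1 by the exact permutation test (n = 3 each).

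**Figure D4:**
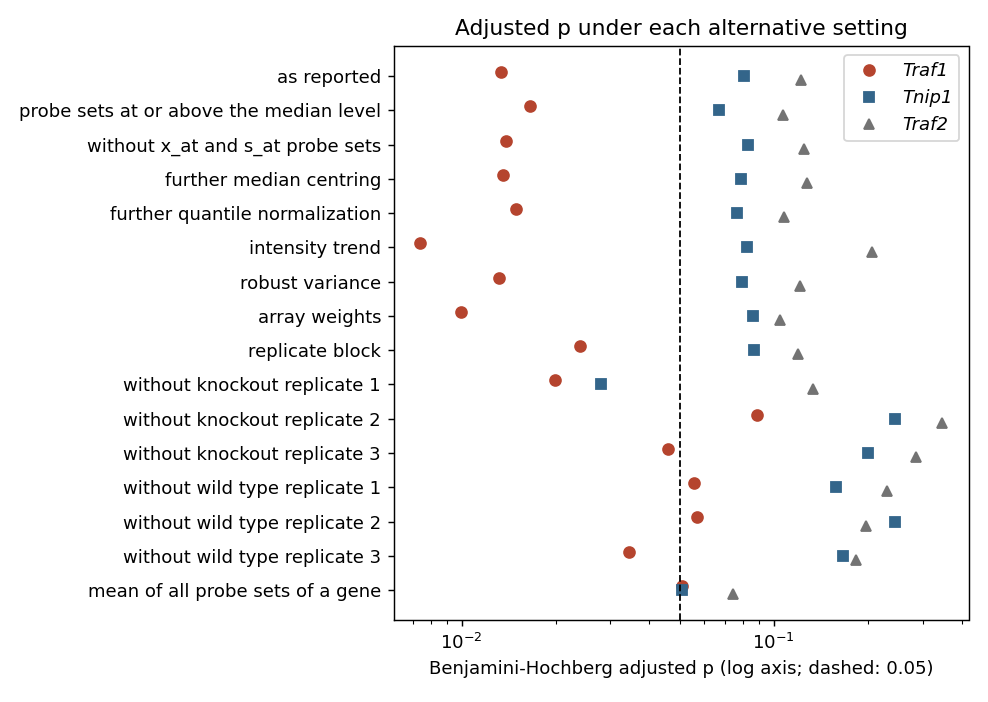
Benjamini-Hochberg adjusted p (horizontal log axis, dashed line at 0.05) of Traf1, Tnip1 and Traf2 as reported and under 15 alternative settings. Traf1 lies under 0.05 in 11 of the 15, Tnip1 in 1 and Traf2 in 0.

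The other genes of the pathway were taken from lists of TRAF partners, ubiquitin-editing factors, MALT1 partners and substrates, noncanonical NF-kB genes, TNF receptors and TNF ligands. Over all genes, 0.591% were lower and 1.08% higher past the threshold, and 16.4% had an unadjusted p under 0.05 in either direction (limma). The median difference of all genes was -0.02. Of 12 measured TRAF partners, 1 rose and 0 fell (limma; 2 higher and 3 lower at an unadjusted p under 0.05), with a median difference of -0.10. Tifa, an adaptor that makes TRAF6 oligomerise, rose by 0.58 (SE 0.09, limma adjusted p = 0.027), with 9.04, 8.94 and 8.96 in the knockout samples and 8.38, 8.41 and 8.42 in the wild-type samples. Its relative Tifab, known to oppose Tifa, stood at -0.62 (SE 0.14, limma adjusted p = 0.104). The cIAP genes Birc2 and Birc3 lie outside the rule for named genes and were picked as the TRAF2-bound ligases after their values were seen; they stood at -0.18 and -0.11 (limma adjusted p = 0.812 and 0.866).

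Of 22 measured ubiquitin-editing genes, 0 rose and 0 fell (limma; 6 higher and 2 lower at an unadjusted p under 0.05), with a median of 0.03. Their smallest p-values belonged to Usp18, an interferon-induced protease that removes ISG15, at -1.10 (SE 0.23, limma adjusted p = 0.0789), and Peli2, a Pellino ubiquitin ligase, at 0.47 (SE 0.12, limma adjusted p = 0.146). Of 8 MALT1 partners and substrates, 0 rose and 0 fell (limma; 2 higher and 0 lower at an unadjusted p under 0.05), with a median of -0.04. Casp8, the initiator caspase that MALT1 complexes can engage, stood at 0.41 (limma adjusted p = 0.138), and Rc3h1, the mRNA-binding protein Roquin-1 that MALT1 cleaves, at 0.37 (limma adjusted p = 0.279).

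Of 7 measured noncanonical NF-kB genes, 2 fell and 0 rose (limma; 4 lower and 0 higher at an unadjusted p under 0.05), with a median of -0.54. With 7 genes that median is the value of a single gene, Tnfrsf13c, whose groups overlapped (limma adjusted p = 0.324). Of the 7 differences, 5 were negative and 2 positive. The genes that fell were Relb, the NF-kB subunit that pairs with p52, and the receptor Cd40, at -1.22 and -0.87 (limma adjusted p = 0.0125 and 0.0302). Nfkb2, which encodes the p52 precursor that NIK causes to be processed and was picked after its value was seen, read 7.13, 6.54 and 6.85 in the knockout samples and 7.77, 7.79 and 8.48 in the wild-type samples. The groups did not overlap, with a difference of -1.17 (SE 0.22, limma adjusted p = 0.0588) that did not pass. These values stand beside a Map3k14 difference of 0.13.

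Of 24 measured TNF receptor genes, Cd40, which belongs to the noncanonical list as well, was the 1 that fell, and 0 rose (limma; 4 lower and 3 higher at an unadjusted p under 0.05), with a median of -0.04. The next smallest p belonged to Tnfrsf9, the receptor 4-1BB, which signals through TRAF1 and TRAF2, at -0.50 (SE 0.12, limma adjusted p = 0.126). Of 14 measured TNF ligands, 1 fell and 0 rose (limma; 4 lower and 1 higher at an unadjusted p under 0.05), with a median of -0.08. Lta, lymphotoxin alpha, fell by 1.00 (SE 0.12, limma adjusted p = 0.0118) and read 3.58, 3.67 and 3.76 in the knockout samples, near the array median, against 4.44, 4.80 and 4.78 in the wild-type samples. Tnf stood at -0.84 (SE 0.18, limma adjusted p = 0.0765).

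**Figure D5:**
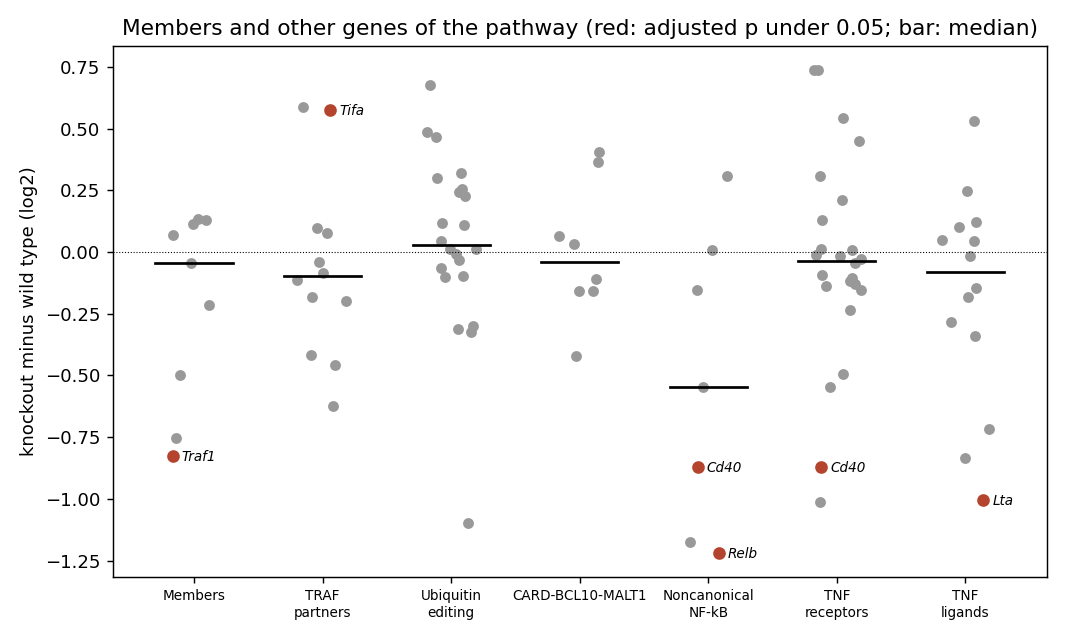
Difference between knockout and wild type (vertical axis, log2) of the brightest probe set of each measured gene, by list, with red points for genes past an adjusted p of 0.05 and bars for list medians. Traf1, Cd40, Relb and Lta passed as lower and Tifa as higher, and the noncanonical list has the lowest median, -0.54. That median is the value of Tnfrsf13c, which did not pass.

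The genes whose pattern over the 6 arrays was most like that of Traf1 were sought among 10511 other genes at or above the median level, by the root mean square distance of values centred on each gene's mean. The nearest were Cpd, a carboxypeptidase, at a distance of 0.06 log2 units, Carmil1, a regulator of actin capping, at 0.06, and Ccnd1, cyclin D1, at 0.07. Their differences were -0.82, -0.91 and -0.84, beside -0.83 for Traf1. Nearest to Tnfaip3 were Col19a1, Serpinb7 and Iffo2, at distances of 0.03, 0.05 and 0.05, with differences of 0.08, 0.15 and 0.17. Col19a1 averaged 3.81 over the 6 arrays, near the array median, against 10.73 for Tnfaip3. The likeness is a description over 6 arrays. The search picked genes by these same values, so differences close to those of Traf1 and Tnfaip3 follow from it.

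Markers of dendritic cells and of other cell types were measured on the same arrays. The shares of all genes given with the pathway lists apply to the marker counts too. Itgax, which encodes the CD11c used for sorting, averaged 10.93 in knockout cells and 11.16 in wild-type cells, and H2-Aa 13.68 and 13.65. Of 10 dendritic cell markers 0 passed (limma). At an unadjusted p under 0.05 (limma) 3 were lower: Zbtb46 (-0.75, limma adjusted p = 0.0621), Xcr1 (-0.81, 0.14) and Irf8 (-0.59, 0.121). The 2 that were higher were Flt3 (0.35, limma adjusted p = 0.284) and Dpp4 (0.32, 0.367). The mean level of the 10 dendritic cell markers per array ran from 11.22 to 11.29 in the knockout samples and from 11.41 to 11.53 in the wild-type samples. Of 10 macrophage and monocyte markers, Cd163, Cd5l and Mertk rose, 3 in all, by 1.58, 1.51 and 1.16 (limma adjusted p = 0.00933, 0.0166 and 0.0115). At an unadjusted p under 0.05 (limma) 5 of them were higher and 0 lower, and 9 had a positive difference. Adgre1 had the negative difference, at -0.28 (limma adjusted p = 0.463). Spic, Slc40a1 and Vcam1 stood at 0.005, 0.225 and 0.29 and did not pass (limma adjusted p = 0.995, 0.795 and 0.598). The mean level of the 10 macrophage and monocyte markers ran from 7.27 to 7.76 in the knockout samples and from 6.81 to 7.09 in the wild-type samples. Of 6 erythroid markers, Hbb-b2, a beta-globin gene, fell by 3.01 (limma adjusted p = 0.0325), on a probe set that may also match its near-identical copies. Hba-a1 stood at -3.57 and did not pass (limma adjusted p = 0.0713). All 6 erythroid differences were negative, and 3 were lower and 0 higher at an unadjusted p under 0.05 (limma). Their mean level ran from 4.09 to 4.64 in the knockout samples and from 5.17 to 6.01 in the wild-type samples.

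Lymphocytes also express Traf1 and Traf5, so their markers were measured beside them. Of 6 B cell markers 0 passed (limma; 0 higher and 2 lower at an unadjusted p under 0.05), and their mean level ran from 4.87 to 5.03 in the knockout samples and from 5.15 to 5.19 in the wild-type samples. The B cell gene Cd79a stood at 3.79 in both groups, near the array median, and Pax5 at 3.33 in knockout cells and 3.41 in wild-type cells, below it. Above it, Ms4a1 stood at 8.10 in knockout cells and 8.60 in wild-type cells, and Cd79b at 6.53 and 6.81. Cr2 had the smallest p of the B cell list, at 3.79 in knockout cells and 4.32 in wild-type cells. Its groups did not overlap, and the difference of -0.53 did not pass (limma adjusted p = 0.0522). Of 6 T cell markers 0 passed (limma, also 0 at an unadjusted p under 0.05). Their mean levels were 4.31 to 4.51 in the knockout samples and 4.53 to 4.59 in the wild-type samples. Near the array median, Cd3d stood at 3.69 in knockout cells and 3.94 in wild-type cells. Cd3e, at 5.37 and 5.46, and Cd5, at 6.15 and 6.48, lay above it. Of 6 NK cell, 6 neutrophil and 3 plasmacytoid dendritic cell markers 0 passed (limma; 1, 2 and 0 higher and 0 lower at an unadjusted p under 0.05). Mean levels were 4.77 to 4.96 in the knockout samples and 4.76 to 4.92 in the wild-type samples for NK cells, and 4.77 to 5.79 in the knockout samples and 4.34 to 4.66 in the wild-type samples for neutrophils. The neutrophil genes S100a8 and S100a9 stood at 2.28 and 1.53 (limma adjusted p = 0.147 and 0.343). Mpo, Elane, Camp and Ngp averaged 3.55, 3.62, 3.56 and 4.17, near the array median. They differed by 0.01, 0.08, -0.14 and 0.15. The plasmacytoid markers ran from 7.23 to 7.58 in the knockout samples and from 7.26 to 7.82 in the wild-type samples. The part of these cell types in the fall of Traf1 was not tested.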

How the data were processed

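RNA from 3 knockout and 3 wild-type samples was measured on 1 Affymetrix 3′ array each. Per the submitters' processing notes, the authors ran RMA in Affymetrix Expression Console 1.1. The deposited data are log2 values, as judged from their range of 2.58 to 13.9 and array medians of 3.77 to 3.81. Arrays give no depth; their number limits the precision.

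Of 45141 rows, 104 Affymetrix controls were left out. Symbols came from the platform annotation, checked through Entrez IDs against RefSeq (0 changed). Knockout was set against wild type with limma 3.58.1 in R 4.3.3 (lmFit, eBayes, no covariates). Benjamini-Hochberg adjustment covered every tested probe set. The fit was tested on simulated data with 50 changed probe sets of each size. It recovered 8% of changes of 0.5 log2 units, 40% at 1, 86% at 2 and 96% at 3. A true change of 0.5 to 1 log2 units could therefore miss the threshold. The members and lists were chosen with earlier results of these data known. Named genes were the members, Map3k7, up to 4 genes past the threshold per list (with fewer than 2, those with the 2 smallest p), listed markers, and the 3 nearest profiles to Traf1 and Tnfaip3. Nfkb2, Birc2, Birc3 and Tnfrsf13c were added after seeing values. Alternatives were filters on dim or cross-matching probe sets, further normalization, other variance models, array weights, the replicate block, mean probe sets, other thresholds and leaving out each array. Figures used matplotlib 3.10.9.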

Additional observations from a re-analysis of the deposited data

How the results depend on the processing

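Traf1, Traf2, Traf5, Tnip1 and Cyld kept their direction under all 15 alternatives run for single genes. Traf1 passed in 11 of them, from -0.92 to -0.75, and Tnip1 in 1. With 1 array left out, 0 to 2 members and 0 to 2 member probe sets were lower, and over all probe sets 25 to 362 were lower and 100 to 498 higher. At an adjusted p under 0.01, 0 members and 0 member probe sets were lower, with 26 lower and 108 higher over all probe sets; under 0.1 the counts were 2, 2, 447 and 709. As means of probe sets 0 members were lower. With array weights 268 probe sets were lower. Signs that turned belonged to differences far from passing: Malt1 with array weights (-0.0134) and, with 1 array left out, Malt1 (-0.0767 to 0.1867; below 0 without knockout replicate 3 or wild-type replicate 2), Tnfaip3 (-0.0082 to 0.26; below 0 without wild-type replicate 2), Map3k14 (-0.0672 to 0.2831; below 0 without knockout replicate 3) and Tnfrsf1b (-0.2637 to 0.2532; above 0 without knockout replicate 2 or wild-type replicate 3, and 0.15 as a mean). The cause was not tested. Same-numbered samples did not all deviate together (correlations 0.05, 0.13 and 0.32), so the numbers were not taken as pairs. Knockout replicates 2 and 3 did correlate best with the wild-type sample of the same number, and knockout replicate 1 with wild-type replicate 2 (0.22). Whether same-numbered samples were processed together was not tested. The replicate block gave 426 lower and 567 higher probe sets, against 176 and 362 without it, and left Traf1 the 1 member called (limma adjusted p = 0.024). Signal near or below the array median limits Lta, Col19a1, the dim Tnfrsf1b probe set and the erythroid genes Alas2, Klf1, Epor and Slc4a1.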
